A study of Mus musculus with 3 samples.

Results

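Granzymes and cytotoxic effector genes were followed across 3 RNA-seq libraries of mouse T-follicular regulatory (TFR) cells, the Foxp3+ T cells that enter B-cell follicles and restrain the germinal centre. The group was chosen by name and holds 9 of the 25759 genes in the files: the granzymes Gzma, Gzmb and Gzmk, the pore former Prf1, the granule membrane gene Nkg7, the transcription factor Eomes and the chemokines Ccl3, Ccl4 and Ccl5. All 9 had reads in all 3 libraries. Of these, 8 were expressed, taken as reaching more than 5 RPKM (exon reads scaled to exon length and library size) in 1 or more of the libraries, as were 7017 of all genes, and Eomes stayed under 5 in all 3.

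Each library came from mice of 1 genotype, and there was 1 library per genotype. N was Nfatc1 fl/fl.Prdm1 +/gfp.FIC, labelled NFATc1-deficient. αA was Nfatc1 caaA.Prdm1 +/gfp.FIC, which carries an active form of the short isoform NFATc1/αA. PαA was Nfatc1 caaA.Prdm1 fl/gfp.FIC, in which the remaining Prdm1 allele, encoding Blimp-1, is also floxed. All 3 carried 1 gfp allele of Prdm1 and FIC, a Cre under control of Foxp3, so that a library without a changed Nfatc1 allele or with 2 intact Prdm1 alleles was not among them. Mice received 125 µg of NP-KLH in alum, were boosted on day 7, and cells were sorted on day 10 as CD4+B220-GFP+CXCR5+GITRhi. The study found this Cre active also in some activated CD4+ cells that did not express Foxp3. Neither the age of the mice nor how many were pooled per library was given in the sources used here.

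Cytotoxic lymphocytes store granzymes, which are serine proteases, together with perforin in secretory granules. On release, perforin, encoded by Prf1, opens the membrane of the target cell and the granzymes enter and cleave their substrates. Regulatory T cells can use the same granules, with Gzmb as the granzyme best known from them. Ccl3, Ccl4 and Ccl5 encode chemokines that attract other leukocytes, and the T-box factors Eomes and T-bet, encoded by Tbx21, act upstream of much of this program in CD8+ T and NK cells.

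The libraries held 27637953 (N), 24258845 (αA) and 23269443 (PαA) exon reads. Genes of the sort gate were present in all 3, with Cd4 at 488, 396 and 341 RPKM in N, αA and PαA. Cxcr5 was at 48.3, 81.3 and 47.6 RPKM and Tnfrsf18, which encodes GITR, at 303, 217 and 145 RPKM. Foxp3, not part of the gate, was at 32.7, 20.9 and 15.3 RPKM. Nfatc1 stood at 63.6, 62.9 and 32.4 RPKM, with αA against N at -0.02 (-0.05 to 0.02) on the log2 scale. By Nfatc1 the libraries labelled N and αA were alike, gene-level reads do not tell the floxed or transgenic alleles apart, and every direction below rests on the labels. Prdm1 stood at 25.6, 24.9 and 10.0 RPKM. With 1 library per genotype there was no replicate spread and no test. Intervals are exact 95% intervals on reads and cover counting error only. Reads without molecular identifiers are not independent molecules, so even this error may be larger than the intervals show. In sorted bulk samples, fewer cells that express a gene and less RNA per cell cannot be told apart.

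The promoters of Gzma, Gzmk and Ccl3 are shown because the genotypes alter 2 transcription factors, Blimp-1 and NFATc1, and because Gzma and Gzmk, which lie 70.6 kb apart on chromosome 13, took different courses. RefSeq's table (GRCm38.p6) matched 7 of the 9 genes, without Ccl4 and Ccl5. The 250 bases before each start site are given 5′ to 3′ on the gene's own strand, here the minus strand for all 3, with GAAAG, the core of the Blimp-1 motif, and GGAAA, the core of the NFAT motif, in capitals on either strand, the 2 overlapping where they read GGAAAG.
Gzma, chr13:113100982-113101231: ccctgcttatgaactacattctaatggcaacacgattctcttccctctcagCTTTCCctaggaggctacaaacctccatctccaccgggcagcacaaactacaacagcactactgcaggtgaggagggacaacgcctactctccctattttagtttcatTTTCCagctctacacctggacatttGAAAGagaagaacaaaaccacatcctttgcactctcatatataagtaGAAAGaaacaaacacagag
Gzmk, chr13:113180966-113181215: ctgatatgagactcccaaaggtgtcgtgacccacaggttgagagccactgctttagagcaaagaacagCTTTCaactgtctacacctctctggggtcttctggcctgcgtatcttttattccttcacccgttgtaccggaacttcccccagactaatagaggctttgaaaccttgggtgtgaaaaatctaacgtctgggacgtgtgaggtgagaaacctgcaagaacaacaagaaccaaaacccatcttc
Ccl3, chr11:83649379-83649628: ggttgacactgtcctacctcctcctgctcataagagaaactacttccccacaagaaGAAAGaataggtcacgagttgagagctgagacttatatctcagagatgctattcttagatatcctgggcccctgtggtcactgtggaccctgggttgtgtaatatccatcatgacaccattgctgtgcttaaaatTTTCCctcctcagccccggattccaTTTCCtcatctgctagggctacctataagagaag
The Gzma window held GAAAG 3 times and GGAAA 2 times, and the Ccl3 window GAAAG 1 time and GGAAA 2 times. The Gzmk window held GAAAG 1 time and no GGAAA. These letters are common: 51.5% of 32851 promoter windows of this length held GAAAG and 55.6% held GGAAA. Among the 7 matched members 3 held each. Those with GAAAG are the 3 shown, and those with GGAAA are Gzma, Ccl3 and Nkg7. The windows of Gzmb, Prf1 and Eomes, which are not shown, held neither. The T-box motif GGTGTGA was in 3.33% of all windows and in the windows of Gzmk, 75 bases before the start, and Nkg7, 13 bases before the start. The Runx motif TGTGGT was in 14.0% of all windows and in 5 of the 7 members' windows. Matches are descriptions of letters and not binding sites.

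The 9 genes did not move as 1 block. Gzma was high in N and low in both αA and PαA. Gzmk, Eomes and Ccl5 were lowest in αA, the library with the highest share of intron reads (5.30% of gene reads, against 3.62% in N and 3.91% in PαA), whose part in these levels was not tested. Gzmb was lower from N to αA to PαA, while Nkg7 and Ccl4 were higher along the same order. Ccl3 was high in PαA, and the RPKM of Prf1 differed by less than 1.5-fold between any 2 libraries.

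**Figure D1:**
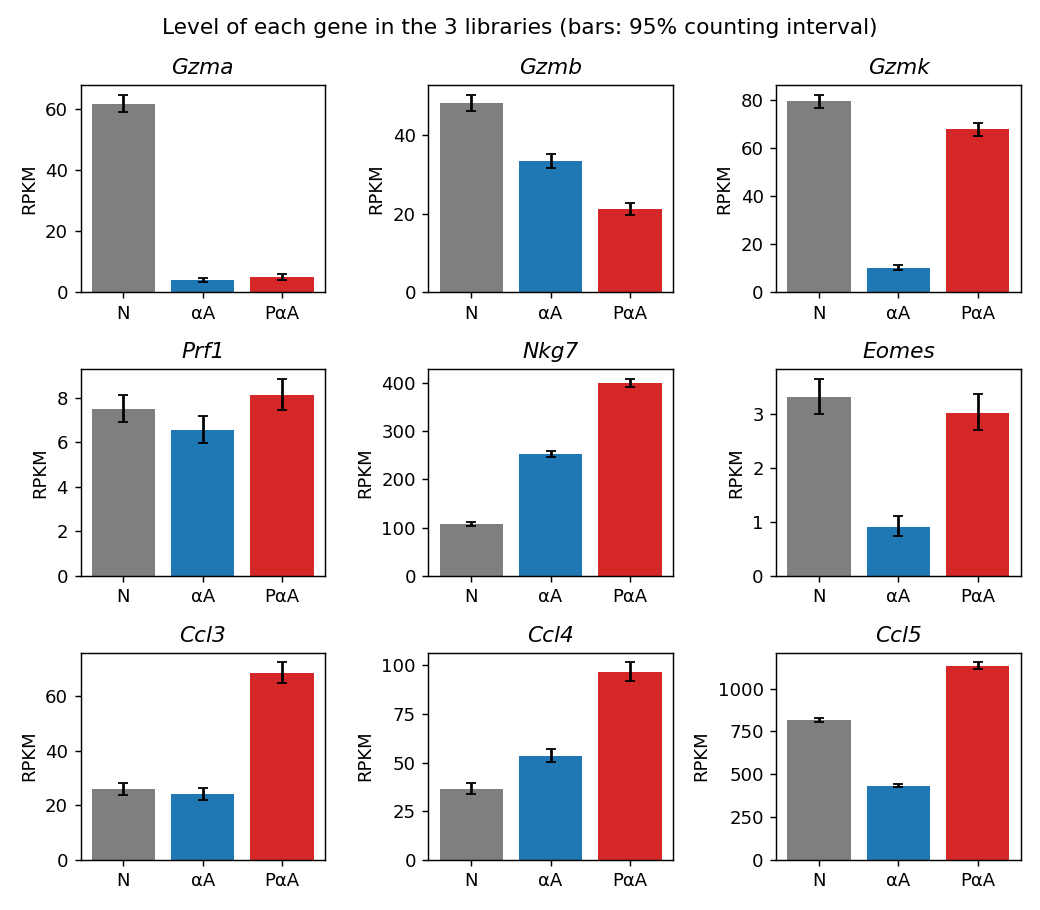
RPKM (y axis, linear from 0) of each of the 9 genes in the libraries N, αA and PαA (x axis), with 95% Poisson counting intervals and 1 library per bar. Gzma stands out in N at 61.8 RPKM, Gzmk is lowest in αA at 9.99 RPKM, and Nkg7 is highest in PαA at 401 RPKM.

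Of the 8 expressed members, 3 differed more than 2-fold between αA and N, with Gzma and Gzmk lower and Nkg7 higher in αA, against 4.25% of the 7017 expressed genes (1.44% higher and 2.81% lower). Between PαA and αA 3 of 8 differed more than 2-fold, Gzmk, Ccl3 and Ccl5, all higher in PαA, against 4.63% of expressed genes (2.18% higher and 2.45% lower). Between PαA and N 5 of 8 differed more than 2-fold, with Gzma and Gzmb lower and Nkg7, Ccl3 and Ccl4 higher in PαA, against 10.3% of expressed genes (2.57% higher and 7.77% lower). The median log2 ratio over the 9 genes was -0.53 for αA against N, 0.86 for PαA against αA and 0.12 for PαA against N, beside medians of -0.17, -0.07 and -0.25 over all genes that passed 1 RPKM in any library. The 3 comparisons share libraries, so a low value in αA alone lowers the first and raises the second.

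**Figure D2:**
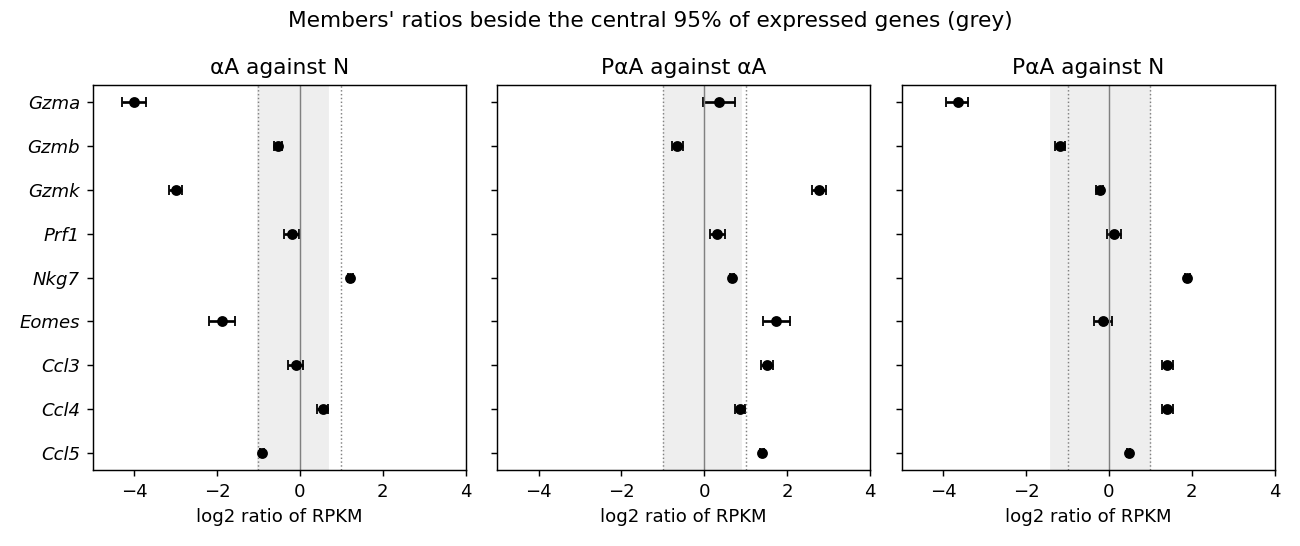
Log2 ratio of RPKM (x axis) of each member (y axis) in the 3 comparisons, with 95% counting intervals, dotted lines at a 2-fold difference and a grey band over the central 95% of 7017 expressed genes. Gzma and Gzmk lie far left of the band for αA against N, and Gzmk lies far right of it for PαA against αA.

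Gzma encodes granzyme A, a tryptase that cuts after basic residues. Its exon reads numbered 1848, 106 and 126 in the libraries N, αA and PαA, which is 61.8, 3.87 and 4.92 RPKM. N was high and the other two were low with overlapping intervals, 3.17 to 4.68 RPKM in αA and 4.10 to 5.86 RPKM in PαA. Gzma was 16.0-fold lower in αA than in N, a log2 ratio of -4.00 (-4.29 to -3.71), and was 16th from the lowest of the 7017 expressed genes. Reads that span 2 of its exons gave a smaller difference, -3.32 (-3.78 to -2.88), from 47 against 511 reads. The log2 ratio of PαA against N was -3.65 (-3.92 to -3.39), and that of PαA against αA, 0.35 (-0.04 to 0.73), had an interval that included 0. The gene lies at chr13:113093825-113100981 on the minus strand.

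Gzmk encodes granzyme K, also a tryptase, on the same strand beside Gzma. Its exon reads numbered 3277, 378 and 2399 in the libraries N, αA and PαA, or 79.4, 9.99 and 67.8 RPKM. N and PαA were high and αA was low. The log2 ratio was -2.99 (-3.15 to -2.84) for αA against N and 2.76 (2.61 to 2.92) for PαA against αA, where Gzmk was 23rd from the highest of the expressed genes. For PαA against N it was -0.23 (-0.30 to -0.15), close to the median of -0.19 over expressed genes. Among the 7017 expressed genes 41 (0.584%) were more than 2-fold lower in αA than in N and more than 2-fold higher again in PαA, and of the members this held for Gzmk.

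The interval of Gzmk in the files, chr13:113171608-113225908, is longer than that of RefSeq, whose start site, used for the promoter above, lies inside it and short of Esm1. It contains the whole of Esm1, which encodes endocan and runs on the plus strand at chr13:113209659-113218098. Esm1 had 667, 9 and 195 exon reads in N, αA and PαA, of which 60, 0 and 25 were uniquely placed. Reads in Gzmk introns numbered 216, 53 and 144, the most of any member. The library kit was not described as marking strand, so intron reads of Gzmk and reads of Esm1 cannot be told apart. Exon-exon junction reads of Gzmk, which span 2 exons, numbered 880, 125 and 672 and gave log2 ratios of -2.69 (-2.97 to -2.42) for αA against N and 2.52 (2.25 to 2.81) for PαA against αA, in the same directions as, and smaller than, the -2.99 and 2.76 of all its exon reads.

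Gzmb encodes granzyme B, which cuts after aspartate and can activate caspases. It had 2057, 1308 and 776 exon reads in N, αA and PαA, or 48.2, 33.4 and 21.2 RPKM, a stepwise lower level with no overlap of the intervals. The log2 ratio was -0.53 (-0.63 to -0.43) for αA against N and -0.66 (-0.79 to -0.53) for PαA against αA, neither past 2-fold. PαA against N gave -1.18 (-1.30 to -1.06), past 2-fold on the RPKM scale and short of it, at -0.95 and -0.94, with TMM factors or median-of-ratios size factors. By all exon reads Gzmb was the 1 member that was lower in PαA than in αA. Junction reads, which were few, also gave lower values there for Gzma (-0.76) and Prf1 (-1.49).

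The make-up of the granzyme transcripts therefore differed between libraries, and such ratios within a library do not depend on how libraries are scaled. The 3 granzymes summed to 189 RPKM in N, 47.3 in αA and 94.0 in PαA. Gzmb made up 25.4% of the sum in N, 70.7% in αA and 22.6% in PαA. Gzmk made up 41.9%, 21.1% and 72.2%, and Gzma 32.6%, 8.18% and 5.23%. The leading granzyme was thus Gzmk in N and PαA and Gzmb in αA. Gzmk stood at 1.28 times the RPKM of Gzma in N (1.21 to 1.36), at 2.58 times in αA (2.08 to 3.23) and at 13.8 times in PαA (11.5 to 16.6).

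**Figure D3:**
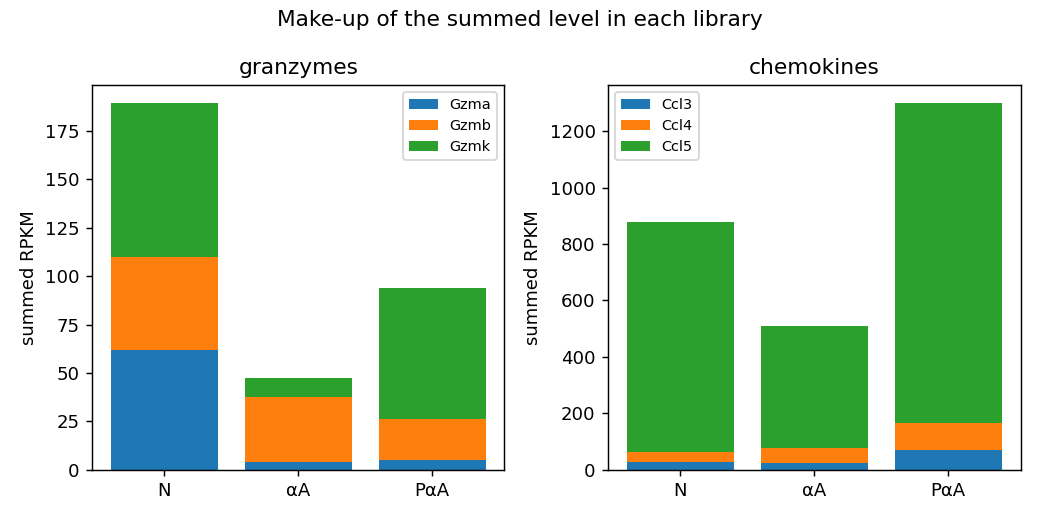
Summed RPKM (y axis, linear from 0) of the granzymes Gzma, Gzmb and Gzmk (left) and the chemokines Ccl3, Ccl4 and Ccl5 (right) in each library (x axis), stacked by gene. Gzmb makes up 70.7% of the granzyme sum in αA, and Ccl5 makes up 84.8% or more of the chemokine sum in each library.

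Prf1, the perforin gene, was lower than all 3 granzymes in N and, by all exon reads, the most even of the members. It had 575, 460 and 535 exon reads in N, αA and PαA, or 7.49, 6.54 and 8.13 RPKM. The intervals of neighbouring libraries in the order αA, N, PαA overlapped. The log2 ratios were -0.20 (-0.38 to -0.02), 0.32 (0.13 to 0.50) and 0.12 (-0.05 to 0.29) for αA against N, PαA against αA and PαA against N. Per unit of Gzmb, Prf1 was at 0.155, 0.195 and 0.383 in the 3 libraries.

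Nkg7 encodes a granule membrane protein needed for efficient release of cytotoxic granules. Its exon reads numbered 2834, 6056 and 8993 in the libraries N, αA and PαA, or 108, 252 and 401 RPKM, and the libraries were far apart in that order. The log2 ratio was 1.22 (1.16 to 1.29) for αA against N, 0.67 (0.62 to 0.71) for PαA against αA and 1.89 (1.83 to 1.95) for PαA against N. By all exon reads it was the 1 expressed member more than 2-fold higher in αA than in N. It ranked 262nd by RPKM of all genes in αA and 180th in PαA. Nkg7 and Prf1, which act in the same granules, were apart: the RPKM of Nkg7 was 14.5, 38.6 and 49.3 times that of Prf1 in N, αA and PαA.

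Eomes encodes the T-box factor eomesodermin. It had 410, 103 and 320 exon reads, or 3.32, 0.910 and 3.02 RPKM in N, αA and PαA, below the level of 5 at which a gene counted as expressed. The αA library was low and N and PαA overlapped. The log2 ratio was -1.87 (-2.19 to -1.55) for αA against N and 1.73 (1.41 to 2.07) for PαA against αA. Its junction reads were few, 45, 22 and 24, and gave -0.91 (-1.71 to -0.14) and 0.22 (-0.67 to 1.13), so that the difference between PαA and αA was not detectable in the reads that cross a junction. Tbx21, which encodes the related T-bet, had another order, with 15.9, 25.4 and 21.3 RPKM.

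Ccl5, the chemokine RANTES, was the most abundant member, ranked 102nd, 160th and 96th by RPKM of all genes in N, αA and PαA. It had 12904, 6267 and 15366 exon reads, or 816, 432 and 1134 RPKM. The αA library was lowest and PαA highest, with no overlap. The log2 ratio was -0.92 (-0.96 to -0.87) for αA against N, 1.39 (1.35 to 1.43) for PαA against αA and 0.48 (0.44 to 0.51) for PαA against N. Only the second was past 2-fold. Junction reads gave -0.94, 1.40 and 0.46.

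Ccl3 and Ccl4, which encode the chemokines MIP-1α and MIP-1β, lie 13.2 kb apart on chromosome 11. Ccl3 had 588, 502 and 1339 exon reads, or 25.8, 24.1 and 68.6 RPKM in N, αA and PαA. N and αA overlapped and PαA was high. The log2 ratio of Ccl3 was -0.10 (-0.28 to 0.07) for αA against N, 1.51 (1.36 to 1.66) for PαA against αA and 1.41 (1.27 to 1.55) for PαA against N.

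Ccl4 had 717, 961 and 1626 exon reads, or 36.5, 53.5 and 96.7 RPKM, each step higher than the one before without overlap. The log2 ratio of Ccl4 was 0.55 (0.41 to 0.69) for αA against N, 0.86 (0.74 to 0.97) for PαA against αA and 1.40 (1.28 to 1.53) for PαA against N. Against N, the PαA library thus held 2.66-fold more Ccl3 and 2.65-fold more Ccl4. Within a library, Ccl4 stood at 1.42 times the RPKM of Ccl3 in N (1.27 to 1.58), 2.22 times in αA (1.99 to 2.48) and 1.41 times in PαA (1.31 to 1.52). Ccl5 made up 92.9%, 84.8% and 87.3% of the sum of the 3 chemokines.

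**Figure D4:**
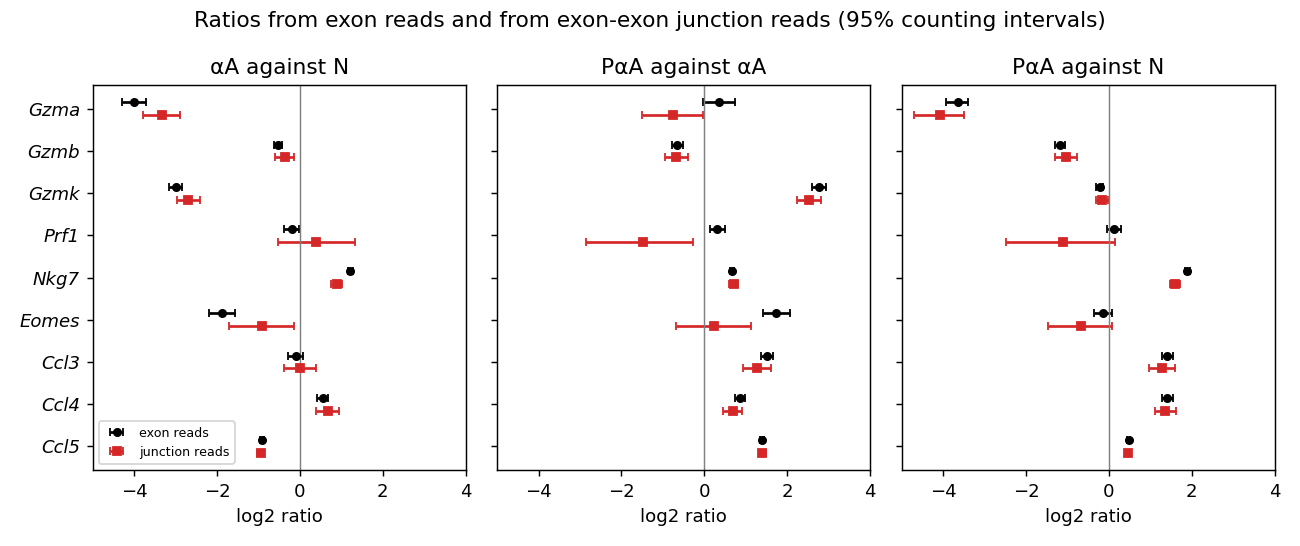
Log2 ratio (x axis) of each member (y axis) from all exon reads (black circles) and from exon-exon junction reads (red squares) in the 3 comparisons, with 95% counting intervals. The 2 kinds of read lie close for Gzmb, Gzmk and the chemokines. The points lie apart for Eomes, Prf1 and Gzma in PαA against αA and in αA against N, in part with overlapping intervals. For Nkg7 the intervals do not overlap in αA against N and in PαA against N.

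Junction reads check that reads come from spliced transcripts. They made up 18.6% to 28.0% of the exon reads of Gzmb, Ccl3, Ccl4 and Ccl5 and of Gzmk in N and PαA, and at most 5.22% for Prf1. The share for Gzma was 27.7%, 44.3% and 20.6% in N, αA and PαA, and that for Gzmk in αA was 33.1%. For Gzma, PαA against αA gave a log2 ratio of -0.76 (-1.51 to -0.04) in junction reads, 26 against 47, opposite in sign to that of all exon reads. For Prf1 it gave -1.49 (-2.85 to -0.29), from 8 against 24 reads. Nkg7 gave 0.89 (0.76 to 1.02) for αA against N in junction reads, short of 2-fold and lower than its 1.22 in all exon reads. For PαA against N it gave 1.60 (1.48 to 1.73), lower than its 1.89. Counting error of independent reads does not cover the differences whose intervals are apart, and their cause was not tested. Intron reads made up at most 4.50% of the gene reads of members other than Gzmk.

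Genes that work with the members in granules and killing had medians near 0, while a few of them differed more than 2-fold. Of 35 such genes in the files, 24 were expressed, and 8.33%, 0% and 20.8% of these were past 2-fold in αA against N, PαA against αA and PαA against N, beside 4.25%, 4.63% and 10.3% of all expressed genes. Between αA and N none was more than 2-fold higher and 2 were lower: Sytl2, a Rab27 effector in granule transport, at 8.98 and 1.31 RPKM in N and αA (log2 ratio -2.78), and Tnfsf10, the death ligand TRAIL, at 19.6 and 6.53 RPKM (-1.58). Between PαA and αA none of the 24 differed more than 2-fold. Between PαA and N 3 were higher, the granule protease gene Ctsw (1.01), Lta, which encodes lymphotoxin (1.03), and the activating receptor gene Cd226 (1.24), and Sytl2 (-2.08) and Tnfsf10 (-1.39) were lower. The median log2 ratio over the 29 with an RPKM above 1 was 0.14, -0.11 and -0.14 in the 3 comparisons.

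Several other granule and killing genes stayed within 2-fold in all comparisons. Srgn, which encodes the granule proteoglycan serglycin, was at 1017, 1127 and 715 RPKM in N, αA and PαA. Serpinb9, whose product inhibits granzyme B, was at 14.7, 16.7 and 21.5 RPKM, higher where Gzmb was lower. Unc13d, which primes granules for fusion, was at 29.7, 26.1 and 18.8 RPKM. Ifng was at 20.5, 18.1 and 24.6 RPKM and the death ligand gene Fasl at 4.67, 7.37 and 6.53 RPKM. Of the other granzyme genes, Gzmd, Gzme, Gzmg and Gzmn had no read in any library, which allows up to 3 reads each, Gzmf had 14, 0 and 0 reads, and Gzmc and Gzmm had 19 to 40 reads in each library.

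Of 16 transcription factor genes listed with the cytotoxic program 13 were expressed. The list was not sorted by whether a factor promotes or restrains the program, so its median is not a measure of the program. None differed more than 2-fold between αA and N. Between PαA and αA 23.1% did and between PαA and N 15.4%, which is 3 and 2 genes. The shares of all expressed genes were 4.25%, 4.63% and 10.3% in the 3 comparisons. Between PαA and αA Klf2, a factor of lymphocyte trafficking and quiescence, was higher, 178 against 56.0 RPKM (log2 ratio 1.67), and Id3, an inhibitor of E proteins, was higher, 35.1 against 16.0 RPKM (1.13). Prdm1, itself altered in PαA, was lower (-1.31). Between PαA and N Klf2 was higher (1.71) and Prdm1 lower (-1.36). Runx3, a partner of the T-box factors in CD8+ T cells, was at 25.4, 17.7 and 23.4 RPKM in N, αA and PαA, and Hopx at 116, 67.4 and 89.5 RPKM. The median log2 ratio of the list was -0.19, 0.10 and -0.09.

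Among 25 receptor and other ligand genes 6 were expressed. Of these, 0%, 16.7% and 50% were past 2-fold in αA against N, PαA against αA and PαA against N. The shares of all expressed genes were 4.25%, 4.63% and 10.3%. Ccr3, a chemokine receptor gene, was at 6.15, 4.66 and 1.93 RPKM in N, αA and PαA and was lower in PαA than in αA (log2 ratio -1.27) and N (-1.67). Xcl1, a chemokine of activated T and NK cells, was at 14.2, 27.7 and 37.7 RPKM and more than 2-fold higher in PαA than in N (1.41). The median log2 ratio of the 13 with an RPKM above 1 was -0.17, -0.48 and -0.59.

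**Figure D5:**
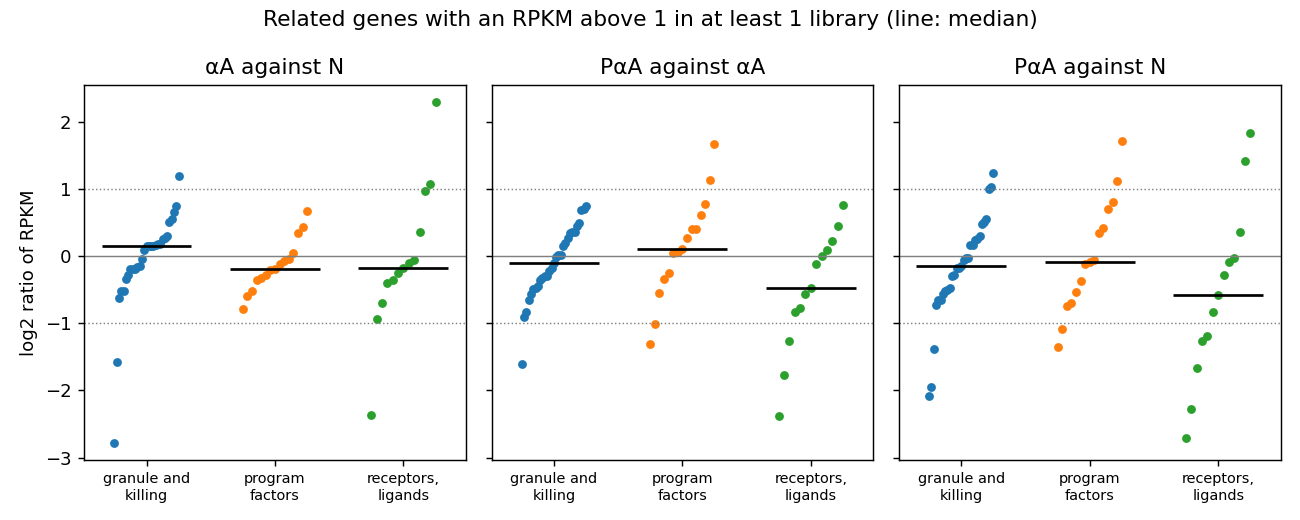
Log2 ratio of RPKM (y axis) of each gene past 1 RPKM in any library in the lists of granule and killing genes, cytotoxic program factors and chemokine receptors and other ligands (x axis), in the 3 comparisons, with the median as a line and dotted lines at 2-fold. The lists spread around medians between -0.59 and 0.14.

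Of 83 genes within 300 kb of a member 14 were expressed, and 7.14%, 7.14% and 14.3% of these, 1, 1 and 2 genes, were past 2-fold in the 3 comparisons, beside 4.25%, 4.63% and 10.3% of all expressed genes. Esm1 was the 1 that was more than 2-fold lower in αA than in N and higher in PαA than in αA. Between PαA and N, Esm1 (log2 ratio -1.55) and Dhx29, an RNA helicase gene (-1.05), were more than 2-fold lower in PαA. Skiv2l2 on chromosome 13 was at 20.5, 17.8 and 17.2 RPKM in N, αA and PαA, and Taf15 on chromosome 11 at 37.2, 25.8 and 28.2 RPKM. The median log2 ratio of the 24 with an RPKM above 1 was -0.21, -0.03 and -0.31.

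The genes nearest to Gzmb in the plane of the log2 ratios αA against N and PαA against αA, of 6990 genes over 3 libraries, were Chchd10, Ptprc, Ifit2, Med14 and Aldh2, at distances of 0.03 to 0.04. Ptprc, which encodes CD45, was at 263, 185 and 115 RPKM in N, αA and PαA. Those nearest to Ccl5 were Ndrg1, Il18r1, Cdkn2a, Sytl3 and Trat1, at distances of 0.10 to 0.24. Il18r1, a chain of the IL-18 receptor, was at 23.9, 14.4 and 38.0 RPKM. With 3 libraries, likeness of this kind is a description of 2 numbers per gene.

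Several genes known from other cells moved with some of the members. Of 10 NK and ILC1 markers, 2 in N, 4 in αA and 5 in PαA were above 5 RPKM. The summed level of the 10 was 50.0, 65.8 and 97.1 RPKM, in the order of Nkg7 and Ccl4. Most of this sum came from Tyrobp and Fcer1g in each library, so it says little about the other markers of the list. Klrc1 had 62, 349 and 645 reads and Klrd1 38, 169 and 155 reads, while Ncr1, which marks NK cells, had 12, 15 and 10 reads, and Klra4 and Klra8 had none in αA and PαA. Cd8a had 18, 179 and 231 reads and Cd8b1 400, 486 and 198 reads. The part of these cells in the levels of the members was not tested.

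Of 9 neutrophil and macrophage markers, the summed level was 279, 175 and 243 RPKM in N, αA and PαA. S100a8 had 185, 11 and 147 reads and S100a9 235, 0 and 153 reads, low in αA as Gzmk, Eomes and Ccl5 were. Lyz2, the largest part of the sum at 214, 134 and 184 RPKM, was also lowest in αA. So was Fcgr3, at 216, 182 and 225 reads. Retnlg, at 109, 0 and 5 reads, was low in both αA and PαA. Other markers of the list had other orders, with Csf1r at 907, 1416 and 824 reads and Adgre1 at 222, 470 and 407. Cd68 had 611, 666 and 576 reads and Cd14 109, 56 and 32. The part of these cells in the members' levels was not tested. Of 7 B and plasma cell markers the summed level was 61.0, 72.2 and 115 RPKM, with Sdc1 at 72, 91 and 495 reads, and its part was not tested. Of 4 γδ T cell markers, Trdc, Tcrg-C1 and Tcrg-C2 had no read in any library and Sox13 had 6, 0 and 0 reads. Of 5 mast cell and basophil markers Mcpt8 and Fcer1a had none. Cpa3 had 7, 0 and 0 reads, Ms4a2 3, 2 and 4, and Kit 138, 127 and 177. Of 5 platelet and red cell markers the summed level was 292, 1127 and 1070 RPKM, nearly all of it from Hba-a1 and Hbb-bs, higher where Gzma was low, and its part was not tested. Pf4 (14, 11 and 31 reads), Ppbp (17, 15 and 80) and Itga2b (15, 0 and 11) had other orders. The 5 dendritic cell markers were all under 5 RPKM, with sums of 3.16, 2.41 and 4.05 RPKM.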

How the data were processed

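Cells were sorted and 1 poly(A) library per genotype was sequenced as single reads. After trimming, CLC Genomics Workbench was used at its default settings, with GRCm38 as the genome. The authors deposited whole-number counts of exon, junction and intron reads per gene, RPKM, which divides exon reads by exon length and a library total, and TPM, which rescales these to the same sum. The library totals, recovered from these values, were 29726219, 27239921 and 25465829. Genes with an exon length of 0 (3715) were not used.

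Ratios of RPKM were taken for αA against N, PαA against αA and PαA against N. A gene counted as past 2-fold where it also passed 5 RPKM in any of the 3 libraries. The study's filter names an expression value, which was read here as RPKM. Intervals are exact Clopper-Pearson (ratios, shares) or Poisson (levels) at 95%, and under 3 reads a ratio is a bound. With 1 library per genotype no test was run. TMM factors came from edgeR 4.0.16 in R 4.3.3. Other steps used Python 3.11.15, pandas 2.3.3 and scipy 1.17.1, checked on simulated counts.

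The members and lists were chosen with earlier results of these data known. From each list, genes past 2-fold were named, at most 6 per comparison given 100 or more reads in the higher of the libraries compared, as were the 5 genes most like Gzmb and Ccl5 and genes within 300 kb. Other genes were chosen after their values were seen. Vamp7, Tafa3 and Itgam had no row under these names. One gene of the lists is not reported here.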

Additional observations from a re-analysis of the deposited data

How the results depend on the processing

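No paired analysis was possible because there was 1 library per genotype, and for the same reason no library could be left out. With TPM, TMM factors, median-of-ratios size factors, unique exon reads or a pseudocount of 1, 7 of 135 member log2 ratios changed sign, none of them past 2-fold, and 2, both Gzmb in PαA against N, changed their side of 2-fold. The sign changes were in Ccl3 for αA against N (0.06 and 0.07 with TMM and size factors) and in PαA against N in Prf1 (-0.078 with TPM), Gzmk (0.00 and 0.02) and Eomes (0.09 and 0.11). The median log2 ratio of expressed genes was -0.14, -0.06 and -0.19 in the 3 comparisons with RPKM and 0.02, 0.01 and 0.04 with TMM factors, and the cause was not tested.

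The median over the members was, with TMM and size factors, -0.37 and -0.36 for αA against N and 0.35 and 0.36 for PαA against N, and with TPM 0.69 for PαA against αA and -0.078 for PαA against N. The median of granule and killing genes was 0.30 and 0.32 for αA against N and 0.089 and 0.10 for PαA against N with TMM and size factors, and -0.27 and -0.34 for PαA against αA and against N with TPM. That of the program factors was -0.032 and -0.022 for αA against N and 0.13 and 0.15 for PαA against N with TMM and size factors, and -0.066 and -0.29 for PαA against αA and against N with TPM.

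At a fold of 1.5, 4 of the 8 expressed members passed between αA and N, beside 14.1% of expressed genes. Between PαA and αA 6 of the 8 passed, beside 14.7% of expressed genes. Expressed genes past the threshold numbered 988, 1033 and 1966 in the 3 comparisons at a fold of 1.5, 978, 1016 and 1715 at an RPKM above 1, and 4683, 4690 and 4698 without a level filter, since lower thresholds admit more genes. With a pseudocount of 1 they numbered 194 for αA against N and 215 for PαA against αA. Of the genes past 2-fold, 33.9%, 47.1% and 24.8% were higher with RPKM, 51.1%, 55.0% and 48.0% with TMM factors, 51.7%, 55.7% and 50.2% with size factors and 30.2%, 31.3% and 13.4% with TPM. Few reads stand behind Gzma in αA and PαA (106 and 126), Eomes in αA (103) and the junction reads of Prf1 (8 to 24).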
